A study of Mus musculus with 8 samples.

Results

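The Ugt1a locus of mouse chromosome 1 holds a row of UDP-glucuronosyltransferase genes that share their last exons. The 8 genes described here are Ugt1a1, Ugt1a2, Ugt1a5, Ugt1a6a, Ugt1a6b, Ugt1a7c, Ugt1a9 and Ugt1a10, listed by symbol. They have 17 of the 115620 transcripts and make up 8 of the 37046 features left after summing transcripts per gene. White adipose tissue RNA was sequenced from female wild-type C57BL/6J mice, an inbred laboratory strain. The endostatin group (4 libraries) received endostatin, a fragment of collagen XVIII which is known to restrain the growth of blood vessels, at 50 mg/kg into the tail vein. The control group (4 libraries) received the phosphate-buffered saline vehicle by the same route. In both groups food was withdrawn after the injection and tissue was taken 2 h later. The labels place replicates 1 and 2 of each group in batch 1 and replicates 3 and 4 in batch 2. The sources used here give neither the mice's age nor the animal behind each library, and the series text mentions 4 mice, which may be the number per group or in all. Some libraries may thus share an animal, so the SDs, SEs and p-values below measure only how these libraries spread, and part of that spread may be technical. The genes were chosen with the endostatin contrast known, Ugt1a1 standing high in that contrast and its neighbours sharing its exons. Their endostatin values are therefore a description, and no test of that contrast is given for them.

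UDP-glucuronosyltransferases sit in the membrane of the endoplasmic reticulum and attach glucuronic acid, taken from UDP-glucuronic acid, to bilirubin, steroids, phenols and drugs, so that these can be excreted. At the Ugt1a locus each gene begins at its own promoter with its own first exon, which encodes the substrate-binding part of the enzyme. That exon is spliced to a common set of exons that encode the part binding UDP-glucuronic acid. Ugt1a1 is the enzyme that conjugates bilirubin and is best known from the liver, where the family is most abundant.

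The structure decides which reads can tell the genes apart, so the joint between the first exon and the common exons is shown for each gene in the order of the genes along the plus strand. The last 25 bases of exon 1 are in lower case and the first 15 bases of exon 2 are in capitals. All were read from the GENCODE M21 transcripts and are given 5′ to 3′.
Ugt1a10: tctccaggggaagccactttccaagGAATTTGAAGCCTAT
Ugt1a9: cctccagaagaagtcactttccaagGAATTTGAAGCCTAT
Ugt1a7c: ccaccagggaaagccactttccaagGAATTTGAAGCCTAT
Ugt1a6b: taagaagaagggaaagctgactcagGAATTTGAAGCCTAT
Ugt1a6a: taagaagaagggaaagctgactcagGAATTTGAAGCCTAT
Ugt1a5: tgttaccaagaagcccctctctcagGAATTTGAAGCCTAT
Ugt1a2: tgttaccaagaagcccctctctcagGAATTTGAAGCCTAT
Ugt1a1: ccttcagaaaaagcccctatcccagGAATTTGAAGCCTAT

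The capitals are the same in all 8 genes, and the lower-case ends come in 6 forms, because Ugt1a6a and Ugt1a6b share one and Ugt1a2 and Ugt1a5 share another. After exon 1, the 735 coding bases of exons 2 to 5 are 100% identical in all 28 pairs of the genes. The coding part of exon 1 is 96.97% identical between Ugt1a6a and Ugt1a6b, 91.35% between Ugt1a9 and Ugt1a10, and 81.37% between Ugt1a2 and Ugt1a5. Ugt1a1 is 55.72% to 58.96% identical to the others there. In the full-length transcripts, 910 stretches of 31 bases occur in Ugt1a1 and no other Ugt1a gene, against 372 for Ugt1a6b and 50 for Ugt1a6a. The count of 50 for Ugt1a6a is against all other genes of the locus, and does not measure its distance from Ugt1a6b alone. The division of reads between Ugt1a6a and Ugt1a6b rests on the positions at which these near-identical first exons differ. Reads from the common exons are assigned by estimate in every gene. In M21 the annotated last exon of Ugt1a7c runs 1005 bases beyond that of Ugt1a1. RefSeq (GRCm38.p6) ends 7 of its 9 Ugt1a genes, all but Ugt1a6b and Ugt1a8, at this far end. Of the 9 M21 full-length transcripts only 1, that of Ugt1a7c, reaches it. With the M21 models, reads from that stretch can be assigned to Ugt1a7c alone, whichever gene they came from. Their share of its count was not tested.

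**Figure D1:**
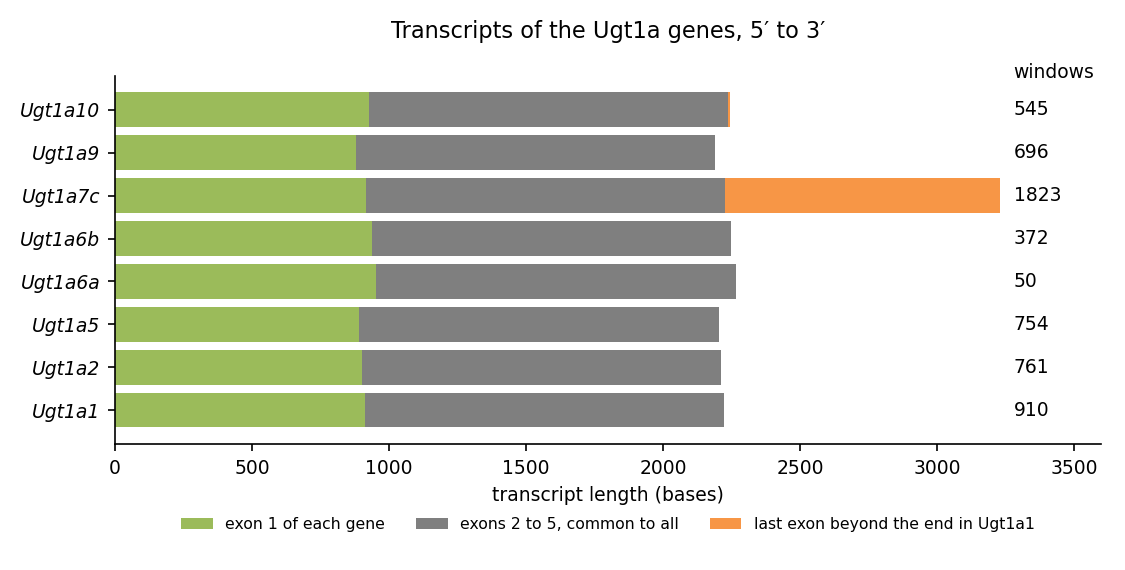
Length in bases of the full-length transcript of each of the 8 Ugt1a genes, from GENCODE M21, split into exon 1, the common exons 2 to 5 and last-exon sequence beyond the end of Ugt1a1. The number at the right counts stretches of 31 bases found in no other Ugt1a gene, from 50 in Ugt1a6a to 1823 in Ugt1a7c, of which 998 start in its long last exon.

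The libraries held 17197721 to 23786594 estimated counts in the endostatin group and 15826783 to 19221886 in the control group. Adipocyte markers were abundant in every library, and Adipoq (adiponectin) stood at 3394 to 4995 TPM in endostatin libraries and 2416 to 4630 TPM in control libraries. The labels name the tissue epididymal although the mice are female. Endostatin 4 and control 3 stood apart, with 360.8 and 451.2 TPM summed over 7 oviduct and uterus markers, against 4.49 to 26.7 TPM in the other 6 libraries. The markers behind these sums differed. In endostatin 4 Ltf gave 298.3 TPM, Epcam 32.4 TPM and Pax8 12.7 TPM, while Ovgp1 (0.719 TPM), Foxj1 (0) and Pgr (5.08 TPM) did not exceed the highest of the other 6. In control 3 all 7 were above those 6 libraries, with Msx1 at 162.4 TPM, Pgr at 97.2 TPM and Ovgp1 at 12.7 TPM. Kidney markers summed to 84.2 TPM in control 3, all of it Lrp2, and to 3.86 to 8.97 TPM in the other libraries. The defining kidney genes Slc34a1, Umod and Slc22a6 were at 0 in all libraries, as 3 of 6 on that list. Intestinal markers summed to 0.919 to 2.57 TPM, with 2 of 6 at 0 in all libraries (Sis and Cdx2) and Lgr5, Muc2 and Vil1 above 0 in all. Mammary markers summed to 0.437 to 2.00 TPM, with 2 of 6 at 0 in all libraries (Csn2 and Wap). The description of endostatin 4 repeats the read-file name of endostatin 3, but their log2 CPM correlated at 0.93 over genes and the labels were kept. Hepatocyte transcripts also differed between libraries and are given with Ugt1a1 below.

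Ugt1a6a, Ugt1a6b and Ugt1a7c made up most of the locus in this fat. Per length, Ugt1a6a averaged 43.7 ± 7.4 TPM, Ugt1a6b 34.6 ± 6.5 TPM and Ugt1a7c 20.8 ± 7.1 TPM (SD, n = 8 libraries). These 3 genes held 87.7% to 95.5% of the summed TPM of the 8 genes in every library. The Ugt1a7c value includes any reads of other genes from its long last exon. Ugt1a6 enzymes are known for conjugating small planar phenols. Below them came Ugt1a5 at 3.98 ± 1.26 TPM, Ugt1a1 at 3.30 ± 2.46 TPM and Ugt1a2 at 2.10 ± 0.81 TPM. Neighbours in this order were not always apart, since Ugt1a6a exceeded Ugt1a6b in 7 of 8 libraries, Ugt1a6b exceeded Ugt1a7c in 7, Ugt1a5 exceeded Ugt1a1 in 6 and Ugt1a1 exceeded Ugt1a2 in 5. Ugt1a7c lay above Ugt1a5, and Ugt1a2 above Ugt1a9, in 8 of 8. Ugt1a9 reached at most 0.313 TPM, with 8.30 estimated reads in endostatin 2 as its highest count. Ugt1a10, known in humans as a gene of the gut, had 0 reads in all libraries, and a count of 0 allows up to 3 counts, or 0.126 to 0.19 CPM in a single library. Ugt1a8, a gene of the locus that is not among the 8, had 0 to 8.99 estimated reads.

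**Figure D2:**
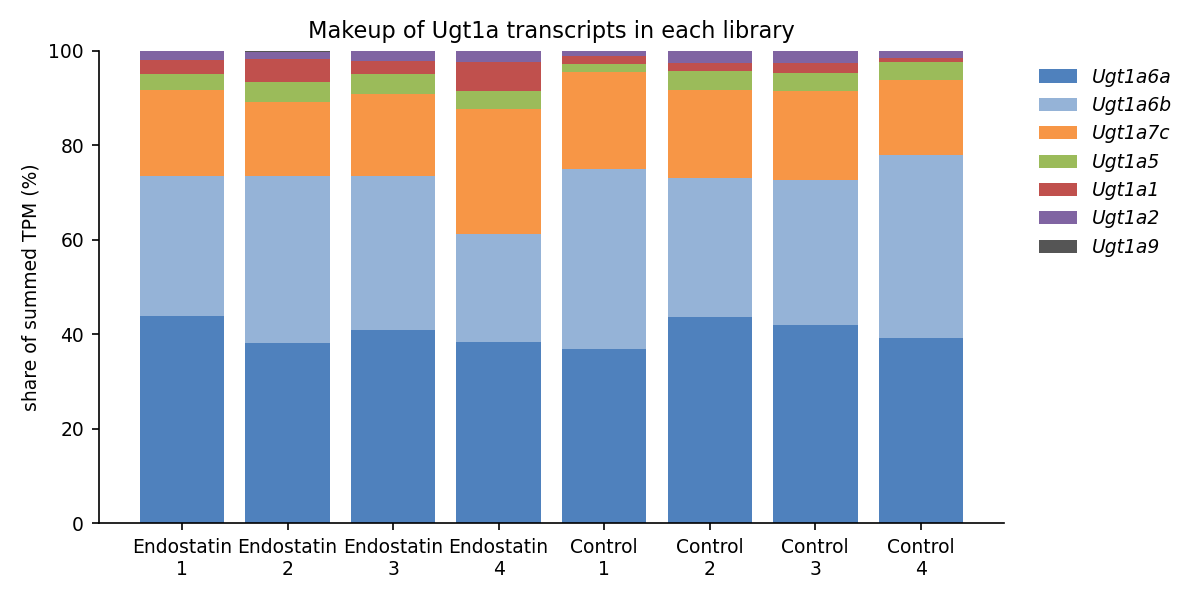
Share in percent of the summed TPM of the Ugt1a genes held by each gene in each of the 8 libraries, as stacked bars that reach 100. Ugt1a6a, Ugt1a6b and Ugt1a7c together fill 87.7% to 95.5% of each bar, and the Ugt1a1 segment is widest in endostatin 4.

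Ugt1a1 was higher in every endostatin library than in every control library. Its level was 3.68, 5.93, 4.45 and 9.64 CPM in endostatin 1 to 4, against 2.12, 2.08, 1.95 and 1.23 CPM in control 1 to 4. The groups did not overlap, and endostatin 4 was the highest library and control 4 the lowest. Ugt1a1 averaged 5.93 ± 2.64 CPM in endostatin libraries and 1.85 ± 0.42 CPM in control libraries (SD, n = 4 each), a ratio of 3.21. The fitted log2 fold change, endostatin minus control, was 1.66 ± 0.37 (SE), and it was 1.18 ± 0.48 within batch 1 and 2.16 ± 0.49 within batch 2. Among the 15184 genes tested, 0.85% had a log2 fold change at least as high, and 0.942% had all endostatin libraries above all control libraries. None of the 8 genes had all endostatin libraries below all control libraries, which 0.698% of the genes tested had. Because Ugt1a1 was chosen from this contrast, nothing is read from these shares.

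The counts behind these levels were small. Ugt1a1 had 87.1, 132.0, 83.3 and 177.9 estimated reads in endostatin 1 to 4, against 35.6, 35.7, 35.4 and 22.5 in control 1 to 4. It held 2.87%, 4.54%, 2.63% and 5.46% of the reads of the 8 genes in endostatin 1 to 4. In control 1 to 4 it held 1.56%, 1.51%, 2.06% and 0.80%. The nearest libraries of the groups in this share were endostatin 3, with a 95% Wilson interval of 2.12% to 3.24%, and control 3, with 1.47% to 2.83%, so their intervals overlap. Such intervals and floors cover counting error only, since reads made by PCR are not independent molecules. They also leave out the error of assigning reads of the common exons, which these estimated counts carry.

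**Figure D3:**
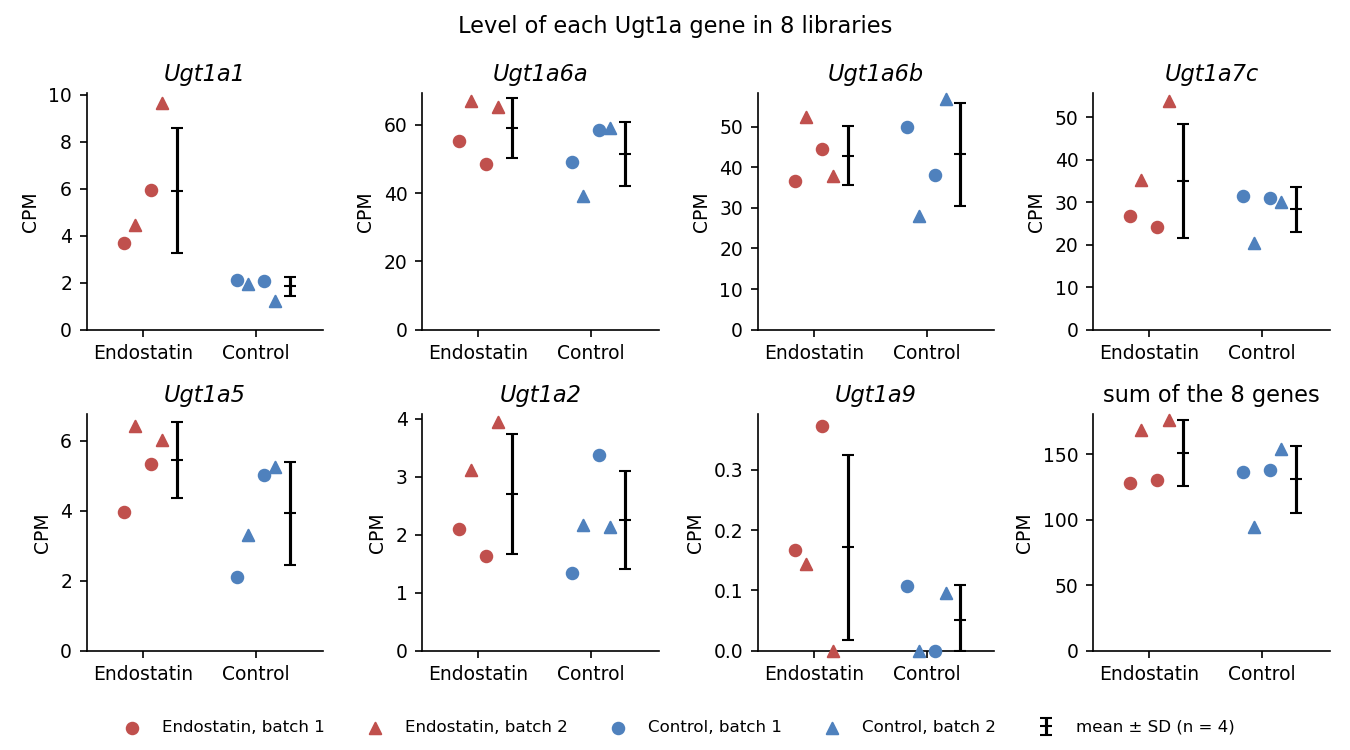
CPM of 7 Ugt1a genes and of the sum of all 8 in each library, endostatin left of control, with batch 1 as circles and batch 2 as triangles; bars are mean ± SD of 4 libraries, with the lower bar ended at 0. The groups do not overlap in Ugt1a1 (endostatin 3.68 to 9.64, control 1.23 to 2.12) and overlap in each other panel.

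Hepatocyte transcripts differed between the libraries too. Alb, which encodes the liver's serum albumin, stood at 208.3, 282.2, 18.3 and 500.9 CPM in endostatin 1 to 4, against 104.8, 57.9, 9.45 and 20.7 CPM in control 1 to 4. Endostatin 3 lay far below the other endostatin libraries in Alb and inside the control range, whereas its Ugt1a1 level of 4.45 CPM was above all controls. Of 16 hepatocyte markers, Cyp2e1 was abundant in every library (1392 to 5242 TPM). The other 15 summed to 370.7, 558.6, 26.1 and 1068 TPM in endostatin 1 to 4, against 160.7, 108.2, 21.4 and 31.1 TPM in control 1 to 4. Of the 16, 4 were at 0 in endostatin 3, 6 in control 3 and 4 in control 4, and none in the other libraries. In bulk tissue, fewer cells of a type and less RNA per cell cannot be told apart.

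Set against Alb, Ugt1a1 had 1.77, 2.10, 24.4 and 1.92 reads per 100 Alb reads in endostatin 1 to 4, against 2.02, 3.59, 20.7 and 5.95 in control 1 to 4. The 4 libraries richest in Alb, which are endostatin 1, 2 and 4 and control 1, had ratios of 1.77 to 2.10. The 4 poorest in Alb had 3.59 to 24.4. Alb is the divisor of this ratio and spanned 171 to 9248 reads, against 22.5 to 177.9 for Ugt1a1. Higher ratios in libraries poor in Alb thus follow largely from the arithmetic, and nothing is read from this split. Between endostatin 3 and control 3, the libraries with the lowest sums of hepatocyte markers, Ugt1a1 was at 4.45 CPM in endostatin 3 and 1.95 CPM in control 3. Control 4, with the next lowest sum, had 1.23 CPM. Endostatin 3 and control 3 also differed in other tissue, with 8.29 and 451.2 TPM of oviduct and uterus markers, so they are not a matched pair. Over the 8 libraries Ugt1a1 and Alb correlated at r = 0.71 (exact permutation p = 0.0534, adjusted over 7 relations 0.374) and rho = 0.71 (exact permutation p = 0.0576, adjusted 0.403), in log2 CPM. Without control 3 and endostatin 4, the libraries farthest from the median Alb level, r was 0.50 (exact permutation p = 0.303). Ugt1a1 was chosen for being high in endostatin libraries, and Alb also averaged higher there (252.4 CPM, against 48.2 CPM in control libraries). The permutations took no account of groups, so r, rho and p include this shared difference, and nothing is read from them. Each batch and each group has 4 libraries, too few for a correlation of its own. The part of hepatocyte RNA in the Ugt1a1 difference was not tested.

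**Figure D4:**
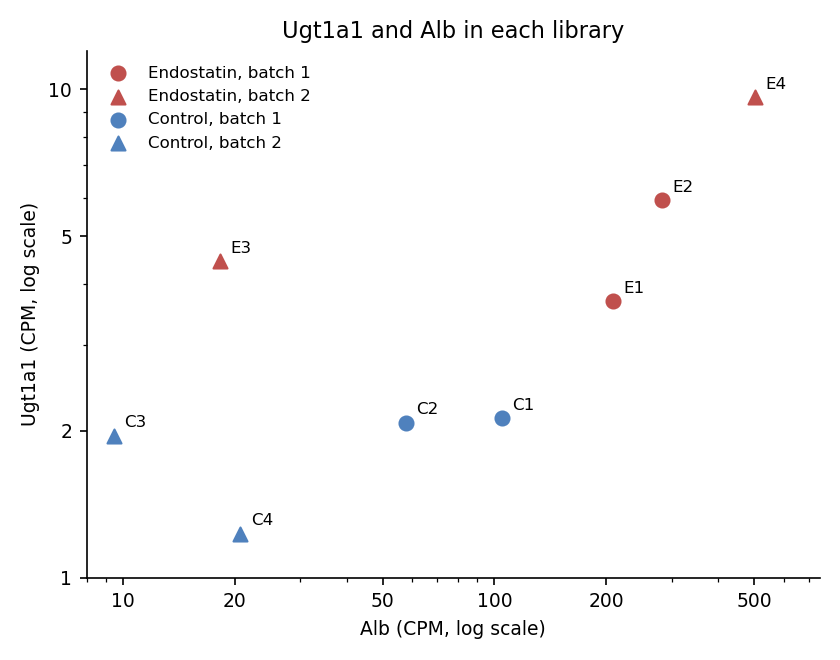
Ugt1a1 against Alb, both in CPM on log axes, with 1 point for each library (E1 to E4 endostatin, C1 to C4 control; circles batch 1, triangles batch 2). Endostatin 3 has 18.3 CPM of Alb and 4.45 CPM of Ugt1a1, and control 1 has 104.8 CPM of Alb and 2.12 CPM of Ugt1a1.

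The other genes of the locus had lower correlations with Alb than Ugt1a1, and the differences between genes were not tested. Only Ugt1a1 was chosen for its group difference, which Alb shares, so its r is not on a par with theirs. The correlation with Alb in log2 CPM over the 8 libraries was 0.45 for Ugt1a7c (exact permutation p = 0.274, adjusted 0.960), 0.25 for Ugt1a6a (p = 0.561, adjusted 0.982) and -0.02 for Ugt1a6b (p = 0.974, adjusted 0.993). It was 0.08 for Ugt1a5 (exact permutation p = 0.853) and 0.00 for Ugt1a2 (p = 0.993), with an adjusted p of 0.993 for both. For the sum of the 8 genes r was 0.34 (exact permutation p = 0.424, adjusted 0.982). Without control 3 and endostatin 4 it was -0.94 (exact permutation p = 0.0056, not adjusted, 6 libraries). Without these 2 libraries r was also negative for Ugt1a7c (-0.83), Ugt1a6a (-0.83), Ugt1a6b (-0.64), Ugt1a5 (-0.40) and Ugt1a2 (-0.57). The sign of r for the sum, Ugt1a7c, Ugt1a6a, Ugt1a5 and Ugt1a2 thus rests on the 2 libraries. Endostatin 4 was at the top and control 3 at the bottom in both Alb and the sum.

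Ugt1a6a, the most abundant gene of the locus, had overlapping groups. It stood at 55.2, 48.6, 67.1 and 65.2 CPM in endostatin 1 to 4, against 49.2, 58.4, 39.0 and 59.0 CPM in control 1 to 4. The log2 fold change was 0.19 ± 0.16 (SE), with -0.05 within batch 1 and 0.43 within batch 2. Control 3 was the lowest library, and without it the log2 fold change was 0.019. Its near copy Ugt1a6b had 36.6, 44.6, 52.4 and 37.8 CPM in endostatin 1 to 4, against 49.9, 38.0, 28.0 and 56.8 CPM in control 1 to 4. Here control libraries were both the highest and the lowest, and the log2 fold change was -0.01 ± 0.23 (SE). Since reads can be divided wrongly between these copies, their sum was also fitted, and it gave 0.10 ± 0.17 (SE).

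Within Ugt1a6a and Ugt1a6b most reads went to transcripts with an additional noncoding first exon. Ugt1a6a-202 held 72.1% to 89.6% of the reads of Ugt1a6a, and Ugt1a6b-202 held 64.5% to 93.7% of those of Ugt1a6b. Ugt1a6a-202 has 0 stretches of 31 bases that no other Ugt1a gene holds, against 338 in Ugt1a6b-202. Ugt1a7c-202, listed under Ugt1a7c, has 6 exons, a first exon of 127 bases and 1593 coding bases, as Ugt1a6a-202 does. It had 0 reads in all libraries. Because its sequence counts as that of another gene, the 0 stretches of Ugt1a6a-202 do not measure likeness to Ugt1a6b. The share of Ugt1a6a-202, and with it most of the level of Ugt1a6a, rests on the estimated division of reads among such transcripts. Ugt1a6a-203, a retained-intron transcript that covers part of the common region, had 47.8 to 105.0 estimated reads. Of its 3312 stretches of 31 bases, 1974 occur in no other Ugt1a gene. Unspliced RNA of other genes of the locus could be counted there, and this was not tested. Ugt1a1, Ugt1a2, Ugt1a5 and Ugt1a9 have 1 transcript each in the files.

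Ugt1a7c had endostatin values on opposite sides of its controls in the batches. Its level was 26.8, 24.1, 35.2 and 53.9 CPM in endostatin 1 to 4, against 31.5, 31.1, 20.4 and 30.1 CPM in control 1 to 4. In batch 1 both endostatin libraries were below both controls, and in batch 2 both were above. The log2 fold change was -0.30 ± 0.25 within batch 1 and 0.82 ± 0.26 within batch 2, and 0.26 ± 0.26 over both (SE). The batch 2 value contains endostatin 4 and control 3, which stood apart in markers of other tissues. The overall log2 fold change was 0.020 without endostatin 4 and 0.024 without control 3, and without both of these the overall log2 fold change was -0.12. Most reads, 94.6% to 96.8%, were assigned to Ugt1a7c-201, the transcript with the long last exon. Reads of other genes of the locus from that stretch would be counted there, and their part in this pattern was not tested.

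Ugt1a5 and Ugt1a2 were low in all libraries, and their groups overlapped. Ugt1a5 had 3.96, 5.34, 6.44 and 6.04 CPM in endostatin 1 to 4, against 2.12, 5.04, 3.30 and 5.24 CPM in control 1 to 4, a log2 fold change of 0.46 ± 0.30 (SE). Endostatin libraries averaged higher in both batches (0.38 and 0.54). Ugt1a2 had 2.10, 1.63, 3.12 and 3.94 CPM in endostatin 1 to 4, against 1.34, 3.37, 2.17 and 2.14 CPM in control 1 to 4. Its log2 fold change was 0.20 ± 0.37 (SE), negative in batch 1 (-0.33) and positive in batch 2 (0.71). With each library left out in turn, Ugt1a5 ranged over 0.28 (without control 1) to 0.76 (without control 2). Ugt1a2 ranged over 0.022 (without endostatin 4) to 0.63 (without control 2). Ugt1a9, with 0 to 0.373 CPM in endostatin libraries and 0 to 0.107 CPM in control libraries, did not pass the filter on low counts, nor did Ugt1a10, so 6 of the 8 genes were fitted.

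The sum over the 8 genes does not depend on how reads of the common exons were divided among them, and adding Ugt1a8 left its log2 fold change at 0.19. It was 128.5, 130.6, 168.9 and 176.5 CPM in endostatin 1 to 4, against 136.3, 138.0, 94.8 and 154.6 CPM in control 1 to 4. The groups overlapped, and the log2 fold change was 0.19 ± 0.17 (SE; 95% interval -0.21 to 0.60). Within batch 1 it was -0.08 ± 0.22 and within batch 2 0.47 ± 0.22. The log2 fold change of the sum was 0.12 without endostatin 4 and -0.00062 without control 3. Of the 6 fitted genes 5 had a positive log2 fold change, against 46.6% of all genes tested, whose median was -0.01. The sign was the same in both batches for Ugt1a1 and Ugt1a5, against 47.7% of all genes. Ugt1a1 was chosen from this contrast and the genes share reads of the common exons, so nothing is read from these counts of signs. Without both control 3 and endostatin 4, Ugt1a2 was at -0.042 and Ugt1a7c at -0.12.

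**Figure D5:**
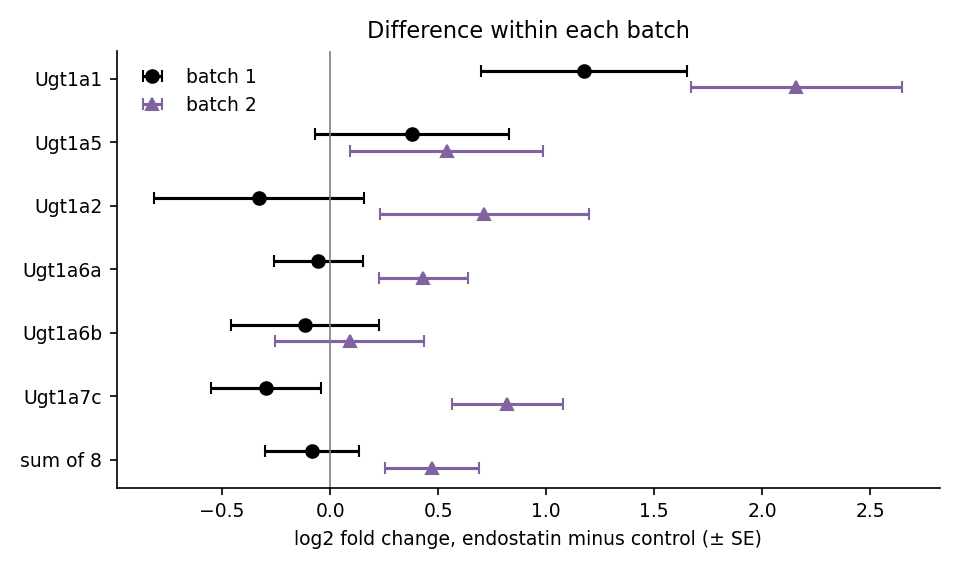
Log2 fold change, endostatin minus control, with its SE, within batch 1 (circles) and batch 2 (triangles) for the 6 fitted Ugt1a genes and the sum of the 8. Ugt1a1 is at 1.18 and 2.16, Ugt1a7c at -0.30 and 0.82, and the sum at -0.08 and 0.47.

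Over all genes, edgeR's quasi-likelihood test with Benjamini-Hochberg adjustment called 0 of 15184 (0%) between endostatin and control at an adjusted p of 0.05. An unadjusted p under 0.05 was reached by 485 genes, 349 higher and 136 lower after endostatin. DESeq2 called 4 and limma-voom 0. Batch 2 against batch 1 was a contrast that the choice of genes had not used. There 0 of the 6 fitted genes passed, against 0.0395% of all genes tested (0.00659% higher and 0.0329% lower in batch 2). The log2 differences, batch 2 minus batch 1, lay between 0.05 ± 0.23 (SE) for Ugt1a6b (edgeR adjusted p = 0.951) and 0.40 ± 0.37 for Ugt1a2 (edgeR adjusted p = 0.713). For Ugt1a1 it was 0.09 ± 0.36 (edgeR adjusted p = 0.946), with a 95% interval of -0.75 to 0.93, and for the sum 0.14 ± 0.17 (edgeR adjusted p = 0.787; interval -0.26 to 0.54). Ugt1a5 differed by 0.34 ± 0.30, Ugt1a7c by 0.25 ± 0.26 and Ugt1a6a by 0.11 ± 0.16.

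Beyond the locus, genes of other glucuronidation steps were compared as lists, and in none did a gene pass the test between endostatin and control (0% of all genes passed). Of 13 other UDP-glycosyltransferase genes, 2 had enough counts to be tested. Ugt3a2 averaged 3.86 ± 1.05 CPM in endostatin and 2.53 ± 0.71 CPM in control libraries (SD, n = 4 each). Ugt2b34 had 0 to 2.38 CPM in endostatin and 0 to 0.642 CPM in control libraries. The log2 fold change was 0.62 ± 0.30 for Ugt3a2 and 2.59 ± 1.21 for Ugt2b34 (SE). The 10 Ugt2 genes, which conjugate steroids and bile acids among others, summed to 3.05, 4.34, 0.039 and 9.67 TPM in endostatin 1 to 4, against 1.01, 0.639, 0.573 and 0.037 TPM in control 1 to 4. Endostatin 3 and control 4 had the lowest Ugt2 sums, each with 9 of 10 genes at 0, and endostatin 1, 2 and 4 had the highest. The part of hepatocyte RNA in these sums and in Ugt2b34 was not tested.

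Genes that supply UDP-glucuronic acid or hydrolyse glucuronides showed no call either. All 5 were tested, 2 with a positive and 3 with a negative log2 fold change, and the median was -0.11 against -0.01 over all genes. Ugdh, which oxidises UDP-glucose to UDP-glucuronic acid, had 74.0 ± 7.0 CPM in endostatin and 66.1 ± 10.2 CPM in control libraries (log2 fold change 0.16 ± 0.13, SE). Ugp2, which makes UDP-glucose, had 85.8 ± 18.7 and 99.9 ± 11.4 CPM in endostatin and control libraries (-0.24 ± 0.15). Gusb, the lysosomal beta-glucuronidase, had 0.10 ± 0.11, and Slc35d1, a transporter of nucleotide sugars into the endoplasmic reticulum, -0.18 ± 0.17 as log2 fold changes.

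Of 10 genes of haem breakdown and bilirubin handling, 9 were tested, 8 with a positive log2 fold change and 1 with a negative one, and the median was 0.14. Abcc2, which exports bilirubin glucuronides into bile, had 4.61 ± 3.33 CPM in endostatin and 0.947 ± 0.427 CPM in control libraries, a log2 fold change of 2.30 ± 0.77 that did not pass (edgeR adjusted p = 1.00). Slco1b2, a hepatic uptake transporter, had 0 to 7.85 CPM in endostatin and 0 to 0.774 CPM in control libraries. Gsta4, a glutathione transferase, had -0.32 ± 0.14 as its log2 fold change. Among 16 hepatocyte markers 15 had a positive log2 fold change, against 46.6% of all genes tested, and 8 an unadjusted edgeR p under 0.05, against 485 of 15184 genes. The part of hepatocyte RNA in the values of Abcc2 and Slco1b2 was not tested.

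Pathways known to act on Ugt1a genes include the aryl hydrocarbon receptor, which induces Ugt1a6 and Cyp1 genes, and NRF2, a transcription factor that induces enzymes of glutathione and drug metabolism. Of 9 genes of the first, 8 were tested, 6 with a positive and 2 with a negative log2 fold change (median 0.07). Cyp1a1, its best-known target, had 0.650 to 2.94 CPM in endostatin and 2.60 to 11.7 CPM in control libraries, and its log2 fold change of -1.95 ± 0.63 did not pass (edgeR adjusted p = 1.00). Cyp1b1, another target, had 0.40 ± 0.23, and Arnt, the receptor's partner, -0.00026 ± 0.085. Cyp1a2 had 0 to 1.99 CPM in endostatin and 0 to 0.595 CPM in control libraries, and its log2 fold change of 3.46 ± 1.39 (SE) did not pass. It was above 0 only in endostatin 1, 2 and 4 and control 1, the libraries richest in Alb. How much hepatocyte RNA contributed to Cyp1a2 was not tested. Of 11 NRF2 genes all were tested, 3 with a positive and 8 with a negative value (median -0.05). Nfe2l2, which encodes NRF2, had 0.04 ± 0.08, Osgin1 0.07 ± 0.18, and the glutathione synthesis genes Gclm -0.28 ± 0.13 and Gclc -0.46 ± 0.23 (log2 fold change, SE).

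Of 12 nuclear receptors and targets known from hepatic drug metabolism, 8 were tested, 6 with a positive and 2 with a negative log2 fold change. The median was 1.87 against -0.01 over all genes, with 0.88 within batch 1 and 3.66 within batch 2. Por, which passes electrons to cytochrome P450 enzymes, had -0.03 ± 0.21, and Ppara, a receptor for fatty acids, -0.12 ± 0.22. The liver P450 genes Cyp2c29 and Cyp4a14 had 0.107 to 4.17 and 0 to 18.2 CPM in endostatin libraries, against 0 to 0.714 CPM for each in control libraries. Their log2 fold changes were 3.85 ± 1.20 and 4.12 ± 1.76 (SE), and neither passed. In endostatin 3 they were at 0.107 and 0 CPM. How much hepatocyte RNA contributed to these values was not tested.

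The 14345 genes that averaged 1 CPM or more were ranked by their likeness to Ugt1a1 and to the sum. Those most like Ugt1a1 over the 8 libraries, by Pearson correlation of log2 CPM, were St6galnac5 (0.97), F10 (0.95), Apol7a (0.94), Fxyd5 (0.94) and Gch1 (0.94). St6galnac5, a sialyltransferase, ranged over 6.36 to 20.4 CPM. F10, coagulation factor X, ranged over 0.439 to 2.71 CPM, and Gch1, which starts tetrahydrobiopterin synthesis, over 3.04 to 7.58 CPM. Alb was at rank 446 (0.71). The log2 fold changes, endostatin minus control, were 1.01 for St6galnac5, 1.48 for F10, 1.70 for Apol7a, 0.35 for Fxyd5 and 0.68 for Gch1. Because Ugt1a1 was chosen from that contrast, genes that share its group difference rank high here, and nothing is read from the list. The genes most like the sum of the locus were Poll (0.97), Nucb1 (0.96), Ntpcr (0.96), Creg1 (0.96) and Ap2a2 (0.96), and Alb was at rank 3786 (0.34). No gene was on both lists. Within the locus, Ugt1a6a and Ugt1a7c correlated at 0.81, Ugt1a2 and Ugt1a5 at 0.71, Ugt1a6a and Ugt1a6b at 0.53, and Ugt1a1 with these 5 genes at -0.13 to 0.52. These correlations over 8 libraries share library depth, normalisation and, for genes of the locus, the division of common reads, and are given as a description.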

How the data were processed

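The authors' deposited files hold, for each library, transcript-level estimated counts from Salmon, with GRCm39 as the build, per the submitters' processing notes. The sources used here name no version or index. TPM and effective lengths were deposited beside the counts. Per the labels' protocols, RNA was depleted of ribosomal RNA and libraries were strand-specific. Transcript identifiers were matched without version to GENCODE M21, used for names and transcript structure only: 113710 of 115620 matched and 1910 were kept as features of their own. Lengths of all 17 transcripts equal those of M21. No coordinates are printed, since M21 and RefSeq (GRCm38.p6) belong to an older build.

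Estimated counts were summed per gene, rounded, filtered with filterByExpr (15184 genes left), normalised by TMM and fitted with edgeR 4.0.16 (quasi-likelihood, R 4.3.3), modelling batch plus treatment, two-sided, adjusted after Benjamini-Hochberg at 0.05. The steps were tested on simulated data. An interaction model gave within-batch values. CPM uses TMM factors, log2 CPM a prior count of 2, and TPM serves for levels between genes. The sum of the 8 genes replaced them in a fit of its own. Alternatives were RLE size factors, library size only, no count filter, DESeq2 1.42.0, limma-voom (limma 3.58.1), transcripts as features, no batch term, a replicate block and leaving out libraries. Sums with Ugt1a8, without Ugt1a7c and without Ugt1a1 were added after the data were seen.

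The members, lists and named genes were chosen with earlier results of these data known. The genes named are the 8 members, Alb, up to 2 tested genes per direction of each list by unadjusted p, and the 5 genes most like Ugt1a1 and the locus sum. Markers of other tissues and adiponectin were named after values were seen.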

Additional observations from a re-analysis of the deposited data

Results flagged for a closer look

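Among 18 groups of 4 libraries checked for a value far from the rest, 1 stood out: Ugt1a7c in control 3, at 20.4 CPM, against 30.1 to 31.5 CPM in the other 3 control libraries. Chance marks about 1 group in 20 in this way. Control 3 also had 451.2 TPM of oviduct and uterus markers and 13434 TPM of adipocyte markers, while adipocyte markers summed to 19776 TPM or more in the other libraries. Their part in the Ugt1a7c value was not tested.

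Ugt1a7c lay on opposite sides of the controls in the 2 batches. Both endostatin libraries were below both controls in batch 1 (26.8 and 24.1 against 31.5 and 31.1 CPM) and above both in batch 2 (35.2 and 53.9 against 20.4 and 30.1 CPM). The difference between the batches was 1.12 ± 0.36 on the log2 scale (SE). No p is given, since a test would use the same values that singled the gene out.

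The sum of the 8 genes showed the same opposite placing, at 128.5 and 130.6 against 136.3 and 138.0 CPM in batch 1, and 168.9 and 176.5 against 94.8 and 154.6 CPM in batch 2, endostatin before control. Its difference between batches was 0.55 ± 0.31 (SE), likewise with no p.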

How the results depend on the processing

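The log2 fold change of Ugt1a1 kept its sign in 17 of 17 alternatives and lay between 1.30 and 1.89 when each library was left out in turn. Because Ugt1a1 was chosen from this contrast and its groups do not overlap, the sign had little room to change, and nothing is read from it. For the 8-gene sum the log2 fold change was -0.00062 to 0.28 with each library left out in turn and -0.016 without both control 3 and endostatin 4. The sum was 0.17 without Ugt1a7c and 0.16 without Ugt1a1. Without both libraries, Ugt1a2 was at -0.042 and Ugt1a7c at -0.12. Ugt1a6a ranged over 0.019 to 0.29 and Ugt1a7c over 0.020 to 0.42 with each library left out. Ugt1a6b turned positive with library size only (0.021) and limma-voom (0.025), and ranged over -0.22 to 0.19 with each library left out, at 0.092 without control 1, 0.19 without control 4, 0.063 without endostatin 1 and 0.051 without endostatin 4. Between endostatin and control, DESeq2 called 4 genes, transcripts as features gave 2 calls, and leaving out each library in turn gave 0 calls each time. Between batches the 6 calls became 2 with library size only, 11 with no count filter, 171 with DESeq2, 10 with limma-voom, 27 without both control 3 and endostatin 4, and 0 to 18 with each library left out; the cause was not tested.

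No pairing of the samples by replicate number was seen, but the check could not exclude one. Deviations of same-numbered libraries correlated at 0.025 in batch 1 and -0.38 in batch 2, and 2 of 8 libraries correlated best with their own number. Both replicate numbers of a batch give the same value by construction. With a replicate block in place of the batch term, Ugt1a1 had 1.59, the sum 0.21 and Ugt1a6b 0.021, and 0 genes were called. Transcripts as features gave no value for genes with several transcripts. Counts of 22.5 to 177.9 reads limit the precision of Ugt1a1.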
